A study of Mus musculus with 6 samples.

Results

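The proteasome genes of mouse liver were taken as all genes whose symbol in the platform annotation of an Affymetrix mouse array begins with Psma, Psmb, Psmc, Psmd or Psme, without the immunoproteasome subunits Psmb8, Psmb9 and Psmb10. This gave 41 of 18193 measured genes, each read by whichever of its single-symbol probe sets was brightest on average. Whole liver RNA came from male mice at 18 weeks of age on standard chow, with no treatment named in the labels. There were 3 arrays of the inbred strain C57BL/KS (BKS), titled wild type, and 3 of New Zealand Obese (NZO) mice, a polygenic strain that becomes obese and diabetic; the series' text places the NZO mice at an age when diabetes, obesity and metabolic syndrome are present. All values are log2 levels made by the authors with RMA, and each difference is NZO minus BKS, so a negative value means a lower level in NZO. Whether the arrays come from different animals is not said in the labels, so the p-values may reflect technical spread alone.

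The proteasome degrades proteins tagged with ubiquitin. Its 20S core is a barrel of stacked rings, with alpha subunits (Psma) forming the gates and beta subunits (Psmb) forming the chamber, where Psmb5, Psmb6 and Psmb7 carry the cutting sites. The 19S cap sits on the core, with a ring of ATPases (Psmc) that unfold the substrate and non-ATPase subunits (Psmd) that bind and remove ubiquitin. Other caps (Psme) open the core without ATP. In liver cells these genes are expressed at high levels, and the transcription factor Nfe2l1 raises many of them when proteasome activity is short.

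Of the 41 genes, 16 belong to the core, 20 to the cap or its assembly and 3 are activator caps. The other two carry such a symbol without being subunits: Psmc3ip, a meiotic recombination factor, and Psme3ip1, which binds the activator Psme3. Psme2 was read only by a probe set shared with another symbol and is not analysed here. The germline alpha subunit Psma8 and the thymus beta subunit Psmb11, with means of 4.26 and 4.98 in BKS, lay below the array medians of 5.08 to 5.22, and Psmc3ip lay at 5.89. The remaining 38 had means of at least 6, and 31 had means of at least 9.

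The stretches of 250 bases upstream of 5 gene starts are shown for the 4 members that were lower in every NZO array than in any BKS array (Psmb3, Psmb5, Psmd4 and Psme4) and for the catalytic subunit Psmb6, whose strain means were nearly equal. They come from RefSeq on GRCm38.p6, read 5′ to 3′ on the gene's strand: Psmb3 at chr11:97703184-97703433 (plus), Psmb5 at chr14:54617996-54618245 (minus), Psmd4 at chr3:95042615-95042864 (minus), Psme4 at chr11:30771525-30771774 (plus) and Psmb6 at chr11:70525107-70525356 (plus). Capitals mark 3 motifs searched on both strands: the antioxidant response element core TGACNNNGC, which Nfe2l1 and Nfe2l2 bind, the CCAAT box, and CCGGAAG, the core bound by ETS factors.
Psmb3: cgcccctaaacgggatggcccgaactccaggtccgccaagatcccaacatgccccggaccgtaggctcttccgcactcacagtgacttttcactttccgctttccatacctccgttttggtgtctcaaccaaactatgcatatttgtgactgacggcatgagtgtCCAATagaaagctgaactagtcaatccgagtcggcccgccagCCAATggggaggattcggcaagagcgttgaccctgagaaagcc
Psmb5: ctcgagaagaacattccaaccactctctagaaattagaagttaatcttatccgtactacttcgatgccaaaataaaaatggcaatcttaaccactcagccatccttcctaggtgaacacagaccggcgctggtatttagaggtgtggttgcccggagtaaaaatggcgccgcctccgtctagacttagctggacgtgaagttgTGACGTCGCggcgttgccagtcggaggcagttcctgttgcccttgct
Psmd4: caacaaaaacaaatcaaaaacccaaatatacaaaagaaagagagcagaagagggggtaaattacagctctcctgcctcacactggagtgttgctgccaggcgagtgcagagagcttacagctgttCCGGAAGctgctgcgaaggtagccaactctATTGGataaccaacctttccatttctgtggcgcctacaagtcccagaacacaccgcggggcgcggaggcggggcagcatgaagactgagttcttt
Psme4: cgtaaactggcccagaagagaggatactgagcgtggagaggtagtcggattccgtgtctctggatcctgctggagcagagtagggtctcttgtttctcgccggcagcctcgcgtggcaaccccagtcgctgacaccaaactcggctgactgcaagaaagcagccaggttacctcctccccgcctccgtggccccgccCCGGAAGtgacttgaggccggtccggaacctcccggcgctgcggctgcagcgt
Psmb6: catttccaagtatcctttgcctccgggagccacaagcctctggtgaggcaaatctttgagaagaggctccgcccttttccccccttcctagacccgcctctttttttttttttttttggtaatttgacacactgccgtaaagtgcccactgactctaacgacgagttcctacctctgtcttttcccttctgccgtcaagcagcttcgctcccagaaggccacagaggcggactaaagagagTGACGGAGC
Psmb3 held 2 CCAAT boxes, Psmb5 and Psmb6 each held 1 antioxidant response element core, Psmd4 held a CCAAT box on the opposite strand and an ETS core, and Psme4 held an ETS core. A further antioxidant response element core of Psme4 ran across its start and is not within the printed bases. In windows of 300 bases that also took in 50 bases after the start, available for 34 of the 41 members, the antioxidant response element core was found in 6 members (17.6%), against 14.0% of 27025 genes and 12.4% of their 32851 promoters. The CCAAT box was found in 15 members (44.1%), against 41.1% of genes and 37.4% of promoters. The ETS core was found in 14 (41.2%), against 9.93% of genes and 8.86% of promoters. A match is a run of letters and was not tested as a binding site. The members without an entry were Psma8, Psmb1, Psmb2, Psmb7, Psmc3, Psmd3 and Psmd7.

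NZO replicate 1 stood apart from the other arrays over all genes. Its values had an SD of 1.95 over all probe sets, against 2.14 to 2.28 on the others, and it was the lowest of the 6 arrays for 39.8% of all genes but for 87.1% of the 3192 genes with a mean of at least 9. Spiked-in hybridization controls averaged 8.17 on it and 9.29 on BKS replicate 1, the arrays whose titles carry the number 1, against 10.2 to 11.5 on the other 4. The 3′ minus 5′ signal of beta-actin, a measure of RNA or cDNA truncation, was 1.72 to 2.33 in BKS and 1.29 to 1.39 in NZO, so it moved with strain. The signal of 18S ribosomal RNA was 10.46 and 7.91 on BKS replicates 2 and 3, against 4.51 to 5.52 on the other 4 arrays, so it too separates the strains over 2 against 2 arrays. The part of either in the results was not tested.

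No proteasome gene passed the test between the strains. With limma over all 18193 genes, 0 of 41 members had a Benjamini-Hochberg adjusted p below 0.05, against 0.742% of all genes, and 3 had an unadjusted p below 0.05 (7.32%, against 11.4% of all genes). Of the 41 log2 fold changes 35 were below 0 (median -0.29), but 23 were with repeated quantile normalization (median -0.02) and 19 with cyclic loess (median 0.02). They ran from -1.13 (Psmb3) to 0.55 (Psma8) on the deposited scale, which is used from here on. Over all genes 55.1% were below 0 and the median was -0.03, but among genes with a mean of at least 9 these were 82.0% and -0.32. Of the 31 members in that range, 30 were below 0, and their median was -0.34. The median standard error of the 38 members with a mean of at least 6 was 0.33, and for 16 of the 41 members the 95% interval of the fold change lay within a change of 1 on the log2 scale in either direction. For the other members the interval also took in larger differences. The 16 include Psma8, Psmb11 and Psmc3ip, with means below 6, and Psme3ip1, which like Psmc3ip is no subunit. None of the 41 passed over 2 against 2 arrays either, without those titled number 1 (5.01% of all genes), without NZO replicate 1 (1.42%), with repeated quantile normalization (2.35%) or with cyclic loess (2.36%).

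**Figure D1:**
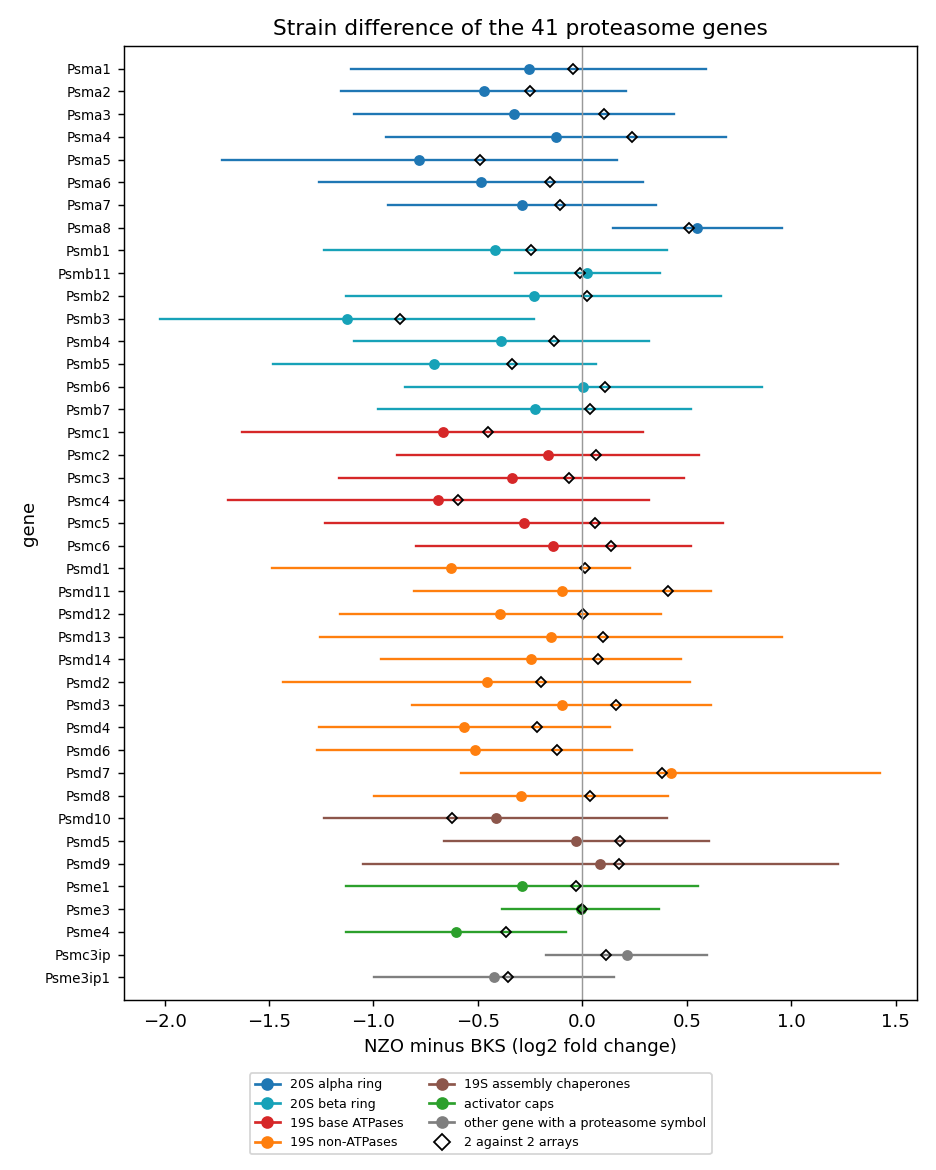
Log2 fold change (NZO minus BKS) of the 41 genes, 1 row per gene, coloured by role: filled points and lines give the value over 3 against 3 arrays with its 95% interval, and open diamonds the difference over 2 against 2 arrays without those titled number 1. Filled points run from -1.13 for Psmb3 to 0.55 for Psma8 and 35 lie left of 0 (19 would with cyclic loess), while 20 of the 41 diamonds do.

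The lower median rested on 1 array. NZO replicate 1 was the lowest of the 6 for 36 of 41 members and for all 31 with a mean of at least 9. It lay below the mean of NZO replicates 2 and 3 by 0.24 to 1.61 (median 1.13) for the 38 members with a mean of at least 6. BKS replicate 1 was below both other BKS arrays for 33 of 41 members, against 47.7% of all genes, a share not counted among bright genes alone. Median deviations from each gene's 6-array mean on BKS replicates 1 to 3 were -0.10, 0.30 and 0.24 for the members. For all genes with a mean of at least 9 they were -0.05, 0.27 and 0.26. For the 38 members with a mean of at least 6 BKS replicate 1 lay below the mean of BKS replicates 2 and 3 by a median of 0.33 (-0.91 to 1.20). BKS replicate 1 was above both other BKS arrays for Psma3, Psmb11, Psmd1 and Psmd11, and the highest of the 6 arrays for Psmd1 and Psmd11. Without NZO replicate 1 the median of the members turned to 0.07 with 17 of 41 below 0, and over 2 against 2 arrays it was 0.00 with 20 of 41 below 0 (48.8%, against 49.4% of all genes). Brighter genes were more often below 0 over 2 against 2 arrays: 2046 of 3192 with a mean of at least 9 (median -0.12). With a mean of at least 6 these were 5667 of 9622 genes (median -0.09), against 18 of 37 subunits and caps (median 0.00). Between the arrays titled number 1 the median of the members was -0.85, which has no replicate check. Spread within a strain followed the same array: for the 38 members the SD among the 3 BKS arrays had a median of 0.24, and among the 3 NZO arrays 0.67.

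**Figure D2:**
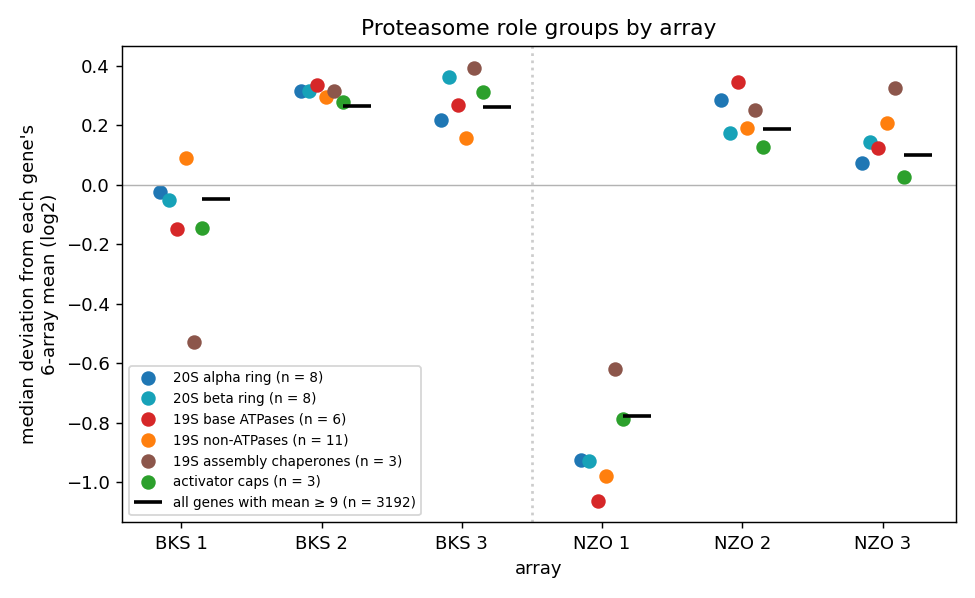
Median deviation (log2) of each role group from its genes' own 6-array means, by array. Points stand for the 6 groups of proteasome genes and the black bar for all 3192 genes with a mean of at least 9; on NZO replicate 1 the groups lie between -1.06 and -0.62 and the bar at -0.78.

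In the alpha ring, 7 of 8 genes were below 0, with a median of -0.31, and none passed. Psma5, an alpha subunit of the core gate, was at 10.79, 11.45 and 11.21 in BKS and 9.43, 10.97 and 10.71 in NZO (log2 levels). For Psma5 the strains overlapped, since NZO replicate 2 was above BKS replicate 1, and the log2 fold change was -0.78 ± 0.40 (standard error, n = 3 per strain, limma adjusted p = 0.532). Psma1 was at 10.50, 11.15 and 10.99 in BKS and 9.82, 11.17 and 10.88 in NZO. Psma7 was at 10.31, 10.62 and 10.67 in BKS and 9.66, 10.68 and 10.38 in NZO. In both of these core subunits NZO replicate 1 was the lowest array, BKS replicate 1 the next lowest and NZO replicate 2 the highest (log2 fold changes -0.26 and -0.29). Psma8, which replaces an alpha subunit in germ cells, was at 4.12, 4.29 and 4.36 in BKS and 4.75, 5.05 and 4.62 in NZO. All 3 NZO values of Psma8 were above the BKS values (0.55 ± 0.17, adjusted p = 0.274), but all 6 lay below the array medians, and the files give no detection call. The remaining alpha genes were Psma2 (-0.47), Psma3 (-0.33), Psma4 (-0.13) and Psma6 (-0.49).

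In the beta ring, 6 of 8 genes were below 0, also with a median of -0.31. Psmb3, a beta subunit without a cutting site, was at 11.65, 12.37 and 11.93 in BKS and 10.01, 11.47 and 11.09 in NZO. Every NZO value of Psmb3 was below every BKS value, from 11.98 ± 0.36 (SD, n = 3) to 10.86 ± 0.76, a 2.18-fold lower mean (log2 fold change -1.13 ± 0.38, standard error, limma adjusted p = 0.318). With the arrays titled number 1 as a block Psmb3 passed (limma adjusted p = 0.0202), the only member to do so: 1 of 41 members was then called, and called lower (2.44%), against 6.55% of all genes called and 5.04% called lower. With array weights the limma adjusted p of Psmb3 was 0.0382, over 2 against 2 arrays 0.0631 (-0.87), and 0.274 once NZO replicate 1 was left out (-0.70). Over all alternatives it ran from 0.0202 to 0.909, the latter without BKS replicate 2.

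NZO replicate 1 was the lowest array for all 3 catalytic subunits, and none of them passed. Psmb5, which cuts after hydrophobic residues, was at 11.56, 11.65 and 11.67 in BKS and 10.11, 11.23 and 11.41 in NZO. For Psmb5 the strains did not overlap (-0.71 ± 0.33, adjusted p = 0.482). Psmb6, which cuts after acidic residues, was at 10.05, 11.00 and 10.67 in BKS and 9.85, 10.98 and 10.90 in NZO, which overlapped. Its strain difference was 0.00, with a 95% interval from -0.85 to 0.86 (adjusted p = 0.998). Psmb7, which cuts after basic residues, was at 12.13, 12.44 and 12.47 in BKS and 11.37, 12.60 and 12.38 in NZO. In Psmb7 NZO replicate 2 was the highest array and NZO replicate 1 the lowest (-0.23 ± 0.32, adjusted p = 0.858). Over 2 against 2 arrays the 3 were at -0.34, 0.11 and 0.04. The other beta genes were Psmb1 (-0.42), Psmb2 (-0.23), Psmb4 (-0.39) and Psmb11 (0.02).

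**Figure D3:**
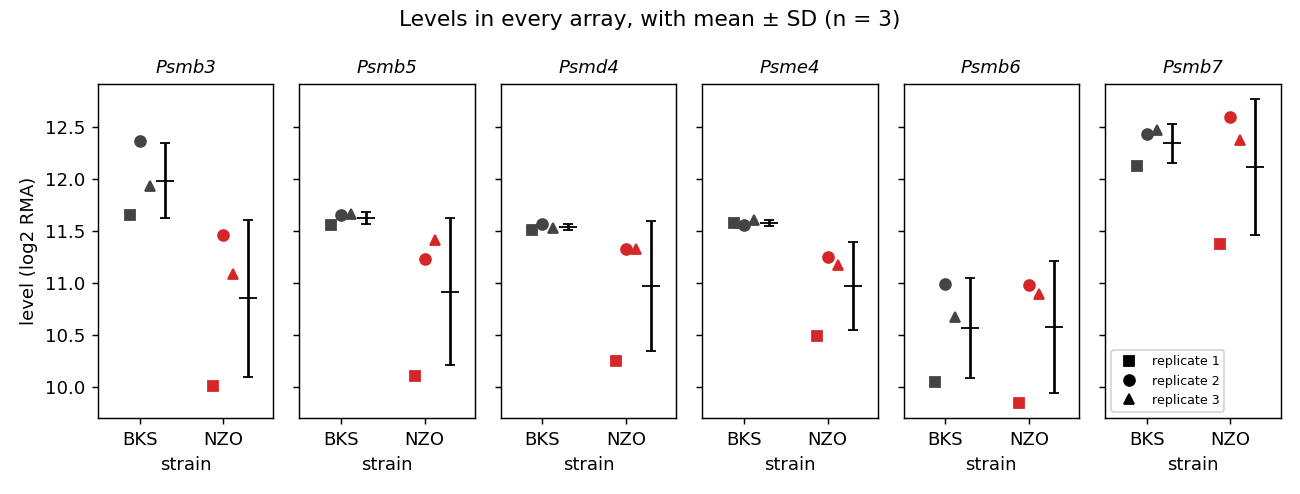
Log2 RMA level of 6 proteasome genes in every array by strain (squares, circles and triangles are replicates 1, 2 and 3), with the mean ± SD of each strain (n = 3) beside the points. Levels are compared within a panel only; for Psmb3, Psmb5, Psmd4 and Psme4 all NZO points lie below all BKS points, and for Psmb6 and Psmb7 they overlap.

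All 6 ATPases of the cap base were below 0, with a median of -0.31, and none passed. Psmc1 was at 9.87, 10.58 and 10.56 in BKS and 8.77, 10.35 and 9.89 in NZO (-0.67 ± 0.41, adjusted p = 0.605). Psmc4 was at 10.52, 11.31 and 11.58 in BKS and 9.65, 11.22 and 10.48 in NZO (-0.69 ± 0.43, adjusted p = 0.612). Both overlapped between strains, and in both NZO replicates 2 and 3 were also below BKS replicates 2 and 3 (-0.45 and -0.60). Psmc2, another ATPase of the ring, was at 11.11, 11.54 and 11.42 in BKS and 10.49, 11.53 and 11.56 in NZO (-0.17). For Psmc2 NZO replicate 1 was the lowest array and BKS replicate 1 the next lowest. The others were Psmc3 (-0.34), Psmc5 (-0.28) and Psmc6 (-0.14).

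Of the 11 non-ATPase subunits of the cap, 10 were below 0, with a median of -0.29, and 3 were below 0 over 2 against 2 arrays (median 0.04). Psmd4, a ubiquitin receptor, was at 11.51, 11.57 and 11.53 in BKS and 10.26, 11.33 and 11.33 in NZO. Its BKS values lay within an SD of 0.03, all above NZO (-0.56 ± 0.30, adjusted p = 0.539). Psmd1, a scaffold of the cap base, was at 11.78, 10.87 and 11.02 in BKS and 9.87, 10.96 and 10.95 in NZO. For Psmd1 the value of -0.63 rested on the arrays titled number 1, which differed by -1.91, while the other 4 differed by 0.01. Psmd2, the other large scaffold, was at 11.22, 11.85 and 11.92 in BKS and 10.24, 11.68 and 11.70 in NZO (-0.46, adjusted p = 0.747).

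The lid subunit Psmd6 was at 11.36, 11.44 and 11.25 in BKS and 10.06, 11.30 and 11.15 in NZO (-0.52). Psmd11, also of the lid, was at 12.72, 11.87 and 11.76 in BKS and 11.61, 12.17 and 12.27 in NZO (-0.10), and over 2 against 2 arrays it was 0.41 higher in NZO (adjusted p = 0.197). Between the arrays titled number 1 Psmd11 was instead at -1.11. Psmd13 was at 8.28, 9.17 and 9.13 in BKS and 7.64, 9.20 and 9.30 in NZO (-0.15), and overlapped. Psmd7, the partner of the deubiquitinase Psmd14, was at 7.90, 8.83 and 9.16 in BKS and 8.40, 9.78 and 8.97 in NZO. It was the only non-ATPase above 0 (0.42 ± 0.43, adjusted p = 0.779), with overlapping strains. The others were Psmd3 (-0.10), Psmd8 (-0.29), Psmd12 (-0.39) and Psmd14 (-0.25).

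The chaperones that assemble the cap base were measured at lower signal. Psmd10 was at 6.56, 7.83 and 7.51 in BKS and 6.57, 7.30 and 6.78 in NZO (-0.41, adjusted p = 0.727). The strain difference of Psmd10 was 0.01 between the arrays titled number 1 and -0.63 over the other 4. Psmd9 was at 7.76, 8.91 and 8.99 in BKS and 7.67, 9.09 and 9.16 in NZO (0.09, adjusted p = 0.969), so both arrays titled number 1 were low. Psmd5 was at -0.03.

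Among the activator caps, Psme4, which caps the core for ATP-independent degradation, was at 11.58, 11.56 and 11.61 in BKS and 10.49, 11.26 and 11.18 in NZO. Its strains did not overlap (-0.61 ± 0.22, unadjusted p = 0.0296, limma adjusted p = 0.361, and 0.0824 with the block). Psme1, part of an interferon-inducible activator, was at 11.17, 11.64 and 11.66 in BKS and 10.37, 11.56 and 11.69 in NZO (-0.29, adjusted p = 0.833). Psme3, the nuclear activator, was at 8.40, 8.68 and 8.56 in BKS and 8.38, 8.67 and 8.57 in NZO. Psme3 had the smallest standard error of the 38 members with a mean of at least 6 (-0.01 ± 0.16, 95% interval from -0.38 to 0.37), and NZO replicate 1 was only 0.24 below the other NZO arrays. Of the genes that are no subunits, Psmc3ip was at 5.83, 5.90 and 5.92 in BKS and 6.25, 5.84 and 6.20 in NZO (0.21), and Psme3ip1 at 8.83, 9.41 and 9.11 in BKS and 8.27, 9.03 and 8.77 in NZO (-0.42). Neither passed (adjusted p = 0.701 and 0.582).

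Groups that did not overlap were counted over 3 against 3 and over 2 against 2 arrays. All 3 NZO arrays were below all 3 BKS arrays for 4 members (9.76%), against 10.9% of all genes, and above for 1 (2.44%), against 6.11%. Over 2 against 2 arrays both NZO values were below both BKS values for 13 members (31.7%, against 26.4%) and above for 8 (19.5%, against 24.7%).

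The median log2 fold change was -0.31 for the 16 core genes and -0.29 for the 20 cap genes, a difference of -0.02. Within an array, the median deviation of the core minus that of the cap stood at 0.10, 0.01 and 0.01 in BKS and 0.03, 0.01 and -0.07 in NZO, with overlapping strains. Without Psma8 and Psmb11, the core genes with a mean below 6, it stood at 0.10, 0.08 and 0.04 in BKS and 0.01, 0.01 and -0.05 in NZO, where the strains did not overlap, and the difference of the medians was -0.07. Over all 16 core and 20 cap genes, core and cap were both low on NZO replicate 1, at -0.93 and -0.95. The SD of the core minus cap difference between replicates was 0.05 for the same full sets. Over 2 against 2 arrays the core lay at -0.08 and the cap at 0.05, a difference of -0.12, and between the arrays titled number 1 the difference was 0.09. As a score over chosen members it was given no test.

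**Figure D4:**
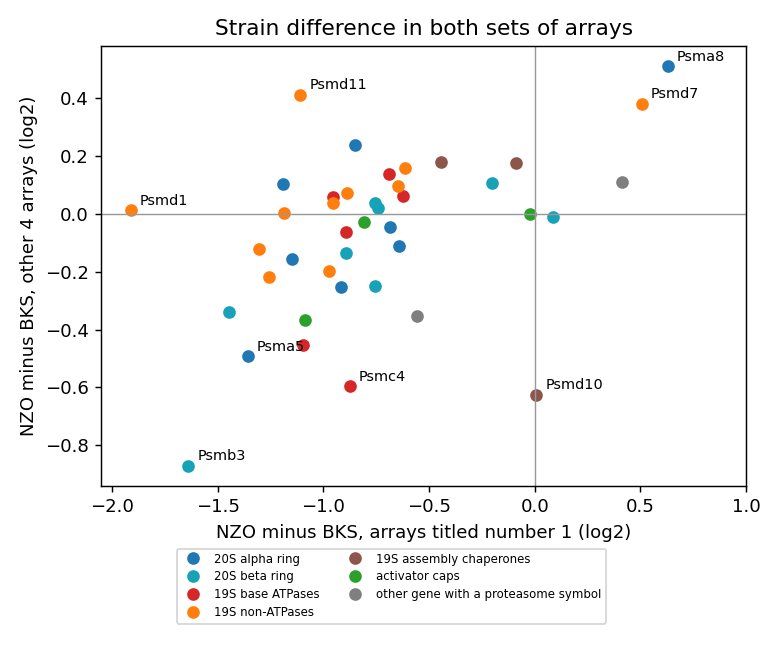
Log2 fold change (NZO minus BKS) of each of the 41 genes between the arrays titled number 1 (x axis, 1 array per strain) and over the other 4 arrays (y axis), coloured by role. Most points lie left of 0 on the x axis and around 0 on the y axis; Psmb3 lies lowest on y (-0.87) and Psmd1 furthest left (-1.91).

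To set members against each other, the members' median deviation was subtracted from each array, a step chosen after seeing the data. Psmb3 was then at 0.32, 0.64 and 0.25 in BKS and -0.51, -0.22 and -0.48 in NZO, a relative difference of -0.80, so each NZO array was below each BKS array against the members' median. On this scale the lowest after Psmb3 were Psma5 (-0.46), Psmb5 (-0.39), Psmc4 (-0.37), Psmc1 (-0.35), Psmd1 (-0.31), Psme4 (-0.28) and Psmd4 (-0.24). The highest were Psma8 (0.87), Psmd7 (0.74), Psmc3ip (0.53), Psmd9 (0.41), Psmb11 (0.35) and Psmb6 (0.33). Psmb3 was not alone in its lack of overlap. Psma2, Psma5, Psmb5 and Psmd4 were also lower in every NZO array, and Psma8, Psmb6, Psmb7, Psmc2 and Psmd5 higher, while Psme4 overlapped. The share of all genes without overlap was not counted on this scale, so these lists cannot be set against it. Because the members' own median was subtracted, members fall on both sides. These are differences relative to other members and do not show which of the genes differed.

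Further probe sets of the same genes did not always repeat the direction. Of the 41 members, 22 had more than 1 probe set, with 46 further sets, of which 22 had a mean of at least 6 and 8 of these went the opposite way. For Psme4 the probe set above gave -0.61 and another gave 0.52 (unadjusted p = 0.142), with levels of 8.75, 9.14 and 9.46 in BKS and 9.02, 10.09 and 9.80 in NZO. Another Psme4 set, with a mean above 9, gave -0.22. Psme4 and Psmd11 were also the members represented by a shared-sequence set, which may pick up other transcripts. For Psmd11 a further set gave 0.34, with 10.67, 10.40 and 10.49 in BKS and 10.10, 11.25 and 11.21 in NZO, and other sets with a mean of at least 6 gave 0.44, 0.18 and -0.03. The direction of both genes therefore depends on the probe set.

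Psme3 had a further set at 0.40, with 7.88, 7.92 and 8.15 in BKS and 7.15, 9.33 and 8.67 in NZO. For Psmd6 the further set gave 0.52, for Psmd4 0.31 and -0.25, and for Psma7 0.09. For Psmb3 the further set had the same direction at less than the size, -0.48 (unadjusted p = 0.188), with 10.43, 11.18 and 11.14 in BKS and 9.78, 10.80 and 10.72 in NZO, where the strains overlapped. For Psma5 it gave -0.45 and for Psmc4 -0.53. For Psmc6 and Psmc2, singled out after their values were seen, sets with shared sequence gave -0.93 and -0.61, against -0.14 and -0.17 from the sets above. Psma1, Psmc1, Psmc2, Psmc3ip, Psmd2, Psmd7 and Psmd13 had opposite values from sets with a mean below 6 alone.

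The immunoproteasome subunits, which replace the cutting subunits under interferon, are outside the rule and are given as neighbours. Their NZO means were lower by similar amounts, and none passed over the 6 arrays on the deposited scale without a block. Psmb8 was at 9.15, 9.76 and 10.17 in BKS and 8.19, 9.40 and 9.23 in NZO (-0.76, limma adjusted p = 0.517, and 0.0341 with the block). Psmb9 was at 8.93, 9.84 and 10.45 in BKS and 8.12, 9.32 and 9.41 in NZO (-0.79, adjusted p = 0.590, and 0.0380 with the block). Psmb10 was at 9.32, 10.26 and 10.34 in BKS and 8.53, 9.71 and 9.26 in NZO (-0.81, adjusted p = 0.482, and 0.0238 with the block). All 3 overlapped between strains, and all 3 passed with the block, against 6.55% of all genes. Over 2 against 2 arrays they stood at -0.66, -0.78 and -0.82, where the 41 constitutive genes had a median of 0.00. None of the 3 passed there (limma adjusted p = 0.104, 0.0950 and 0.0557). Without NZO replicate 1 they were at -0.38, -0.38 and -0.49 (limma adjusted p = 0.660, 0.768 and 0.606). With repeated quantile normalization or cyclic loess none of the 3 passed either.

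The log2 level of Psmb9 minus that of Psmb6, the subunit it replaces, stood at -1.12, -1.16 and -0.23 in BKS and -1.73, -1.67 and -1.49 in NZO. Both strains lay apart (difference -0.80, exact two-sided permutation p = 0.1, the smallest that 3 against 3 allows, adjusted p = 0.15 over 3 pairs). Psmb10 minus Psmb7 stood at -2.81, -2.17 and -2.13 in BKS and -2.85, -2.89 and -3.11 in NZO, again without overlap (-0.58, exact permutation p = 0.1, adjusted p = 0.15). Psmb8 minus Psmb5 overlapped (-0.05, exact permutation p = 0.9). These differences between probe sets are read only across arrays, not as ratios of protein or transcript, and the pairs were compared after their values had been seen.

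**Figure D5:**
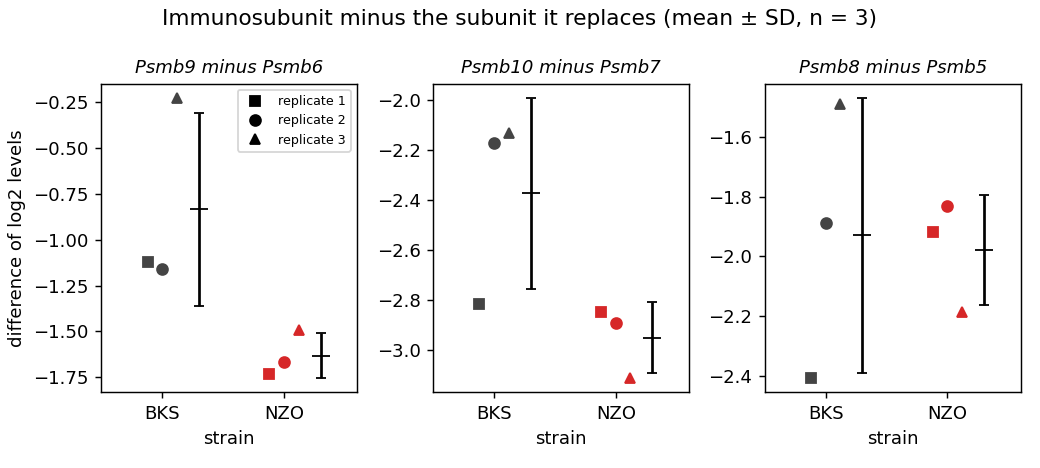
Log2 level of each immunosubunit minus that of the constitutive subunit it replaces, per array (squares, circles and triangles are replicates 1, 2 and 3) and as mean ± SD (n = 3). NZO points lie below all BKS points for Psmb9 minus Psmb6 and Psmb10 minus Psmb7, and among them for Psmb8 minus Psmb5; each panel has its own axis range.

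None of the other proteasome pathway genes passed over the 6 arrays on the deposited scale without a block. Among 6 core assembly factors and inhibitors the median was 0.04, among 8 proteins bound to the proteasome 0.08, among 8 substrate shuttles and p97 partners -0.29, and among 7 transcriptional regulators -0.36. With the block 3 of these 29 genes passed, against 6.55% of all genes: Sem1, a small cap subunit (-0.62, adjusted p = 0.0477), Ubqln2, a ubiquitin shuttle (-1.14, adjusted p = 0.0368), and Nfe2l2, the stress regulator that binds antioxidant response elements (1.08, adjusted p = 0.0318). Nfe2l2 was at 9.22, 9.10 and 9.06 in BKS and 9.68, 10.77 and 10.17 in NZO, all NZO arrays above all BKS arrays, and it also passed over 2 against 2 arrays (1.39, limma adjusted p = 0.0141), without NZO replicate 1 (0.0314), with repeated quantile normalization (0.0166) and with cyclic loess (0.0122). Nfe2l1, the main regulator of proteasome genes, was at 8.37, 8.59 and 8.79 in BKS and 7.34, 8.67 and 8.64 in NZO (-0.37, adjusted p = 0.774), with NZO replicate 1 alone low.

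Markers of cell types were compared because whole liver was used, where fewer cells of a type and less RNA per cell cannot be told apart. None of 47 measured markers passed over the 6 arrays on the deposited scale without a block. The log2 of the summed level of 8 hepatocyte markers, albumin among them, was 16.94 to 17.03 in BKS and 16.02 to 17.05 in NZO. The low end in NZO was NZO replicate 1, where albumin stood at 13.98, against 14.97 and 14.93 on NZO replicates 2 and 3. All 7 sinusoidal endothelial markers were above 0 (median 0.45), with a summed level of 9.97 to 10.52 in BKS and 10.51 to 11.20 in NZO, and 3 of them (Stab2, Pecam1 and Fcgr2b) passed with the block, against 6.55% of all genes. Stab2, a scavenger receptor, also passed with repeated quantile normalization (limma adjusted p = 0.0152) and cyclic loess (0.0179). Over 2 against 2 arrays 8 of the 47 markers passed, all higher in NZO, against 5.01% of all genes: Vsig4 (1.96) and Cd68 (1.17) of macrophages, Stab2 (1.05), Fcgr2b (0.99) and Pecam1 (0.83) of endothelium, Dcn (1.27) and Lrat (0.71) of stellate cells and fibroblasts, and Ass1 (1.54) of hepatocytes. Some of these were read at low signal, averaging below 6, with array medians of 5.08 to 5.22. Their means in BKS and NZO were 5.25 and 6.33 for Ass1 and 4.87 and 5.64 for Cd68. For Lrat they were 5.33 and 5.89, and for Pecam1 4.33 and 5.04. Without a detection call, such values do not show a change of a cell type. Macrophage markers (8 genes) summed to 11.20 to 12.18 in BKS and 11.12 to 12.04 in NZO. Lymphocyte markers (7 genes, 4 averaging below 6) summed to 8.62 to 8.63 in BKS and 8.53 to 10.11 in NZO. The value of 10.11 was that of NZO replicate 1, where Cd8a alone stood at 9.55, against 6.41 to 6.70 on the other arrays. Epcam, a cholangiocyte marker, also stood out on that array, at 9.78 against 7.07 to 7.73 on the others. Both genes were read by a shared-sequence set, so the value does not show more lymphocytes. Stellate and fibroblast markers (8 genes) summed to 10.69 to 11.68 in BKS and 10.61 to 11.42 in NZO. Other markers of the same lists were lower in NZO. Over the 6 arrays 4 of 8 stellate and fibroblast, 4 of 8 macrophage and 6 of 8 hepatocyte markers were below 0. Among them was Col3a1 of the stellate and fibroblast list (-1.17, and -0.66 over 2 against 2 arrays). The median log2 fold change was -0.09 for 4 neutrophil markers and 0.07 for 5 cholangiocyte markers. The part of any of these cells in the proteasome values was not tested.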

How the data were processed

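Liver RNA of 6 samples was measured on Affymetrix mouse expression arrays. The authors deposited log2 values; per the submitters' processing notes, RMA and Affymetrix Expression Console were used, with versions not given in the sources used here. RMA corrects background, quantile-normalizes and summarises probes, and gives no detection call. The number of arrays limits the precision. Of 45101 probe sets, 34945 had 1 symbol in the platform annotation, 932 several, 9160 were not listed, and 64 controls were left out. The strain test was limma (version 3.58.1, R version 4.3.3), a two-sided moderated linear model over all 6 arrays with no covariate, with Benjamini-Hochberg adjustment over all 18193 genes. The members and gene lists were chosen with earlier results of these data known. Values in every array are given for the catalytic subunits, the 2 smallest p of each role group and members with an opposite further probe set. Ubiquitin genes were listed but are not analysed here. Alternatives changed the normalization, filter, probe set, variance model, weights and arrays, or added a block of the arrays titled number 1. The labels do not name a batch. Replicate numbers follow accession order and pair nothing. The fit was run on simulated data with independent noise and no shift of a whole array. That run therefore says nothing about an array such as NZO replicate 1. Figures used matplotlib 3.10.9 in Python 3.11.15.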

Additional observations from a re-analysis of the deposited data

How the results depend on the processing

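No member passed under 14 of the 16 alternatives fitted; the 2 exceptions, array weights and the block of the arrays titled number 1, called 1 member each (Psmb3). The median of the members, -0.29, was -0.02 once quantile normalization was repeated, 0.02 by cyclic loess, and -0.85 between the arrays titled number 1, and leaving out 1 array it ran from -0.52 (without NZO replicate 2) to 0.07 (without NZO replicate 1). Over all genes 135 passed, against 429 with cyclic loess, 427 after quantile normalization was repeated, 281 with trend and robust variances, 1298 with array weights, 1192 with the block, 912 over 2 against 2 arrays, 56 among genes with a mean of at least 9 (chosen after seeing the data), and 27 (without BKS replicate 2) to 258 (without NZO replicate 1) with 1 array left out. The core minus cap difference, -0.02, was -0.07 among genes with a mean of at least 6 and among subunits with such a mean, -0.12 with array weights and over 2 against 2 arrays, 0.087 between the arrays titled number 1, and from -0.109 to 0.0145 with 1 array left out. Of 390 pairs of a named gene and an alternative, 388 stayed on their side of the threshold and 47 changed sign, none with a call. No paired analysis was possible because the strains share only the title number 1.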
